A study of Mus musculus with 8 samples.

Results

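The 34 genes described here are markers of astrocytes and of radial glia, the progenitors from which astrocytes arise, read in cultured mouse hippocampal neurons with and without knockdown of the deadenylase CNOT7. They were taken by name from a table of 23845 gene entries, all 34 had an entry, and the 32 with a mean of at least 5 TPM over 8 libraries are described in depth. Dio2, at a mean of 9.25 TPM, was the lowest gene kept, and Gjb6, at 1.00 TPM, was the highest left out, with Slc7a10 at 0.125 TPM below it. The neurons came from mouse embryos at day 19 and received, at 13 to 15 days in vitro, a lentivirus with a hairpin against CNOT7 or with a scrambled hairpin, and RNA was taken at 17 to 19 days. Polyadenylated RNA bound to poly(U) agarose was eluted at 75 °C, either whole (total RNA) or after a 50 °C wash that, per the labels, takes off tails shorter than 50 nucleotides (long-tail RNA). The 4 groups were CNOT7 knockdown total, CNOT7 knockdown long-tail, scrambled total and scrambled long-tail RNA, with 2 libraries each. The labels name no cell type other than neurons and no promoter that drives the hairpin, and give no sign of whether a group's 2 libraries were made from different cultures. All p-values therefore measure only the spread between these libraries.

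Astrocytes clear glutamate and potassium from around synapses, share ions and metabolites through gap junctions, and supply lipids and matrix proteins to neurons. Cultures of embryonic hippocampus usually hold some of them unless glia are removed, and glia there often keep radial glia proteins such as nestin and FABP7. CNOT7 is a catalytic subunit of the CCR4-NOT complex and shortens the poly(A) tails of mRNAs, so the design asks whether mRNA shares in total RNA, or among long-tailed RNA, differ once it is depleted. In bulk RNA, fewer cells of a type and less RNA per cell cannot be told apart.

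The targeted mRNA bore out the labels. Cnot7 was at 12 and 16 TPM in the knockdown total libraries, against 42 and 36 TPM in the scrambled ones, and at 9 and 11 TPM against 28 and 31 TPM in long-tail RNA. TPM is a share of transcripts within a library and keeps no record of depth. Between 2.90% and 18.6% of TPM went to Rn45s, the precursor of ribosomal RNA. The 2 knockdown long-tail libraries agreed less with each other (r = 0.966 across genes) than the libraries of the other groups did (0.982 to 0.985). That value does not say which of them is the odd one. Library 2 stood apart for some markers, such as Slc1a2, at 89 TPM in it and 313 TPM in library 1. The scrambled long-tail libraries had Slc1a2 at 268 and 207 TPM. Values without knockdown long-tail library 2 are given beside the fitted long-tail differences and medians of knockdown neurons that it moved by more than 1.5 times. Medians of markers grouped by role are the exception and are given only with it.

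The markers were among the most abundant transcripts of cultures labelled as neurons. Of the 34 genes, 7 ranked within the 100 highest of the table by mean TPM, and 16 within the 500 highest. Apoe, the main lipid carrier secreted by astrocytes, ranked 6 with a mean of 5933 TPM. Vim, an intermediate filament protein shared by astrocytes, progenitors and mesenchymal cells, ranked 23 (2671 TPM), and Gfap, the astrocyte intermediate filament protein, ranked 34 (2141 TPM). The 32 genes together made up 2.36% and 2.13% of TPM in knockdown total RNA, against 2.42% and 2.66% in scrambled total RNA. In long-tail RNA they made up 2.00% and 2.67% in knockdown, against 2.22% and 2.86% in scrambled libraries. The sums did not overlap between knockdown and scrambled in total RNA and overlapped in long-tail RNA. With Rn45s left out of the total, the shares were 2.51% and 2.49% in knockdown total, against 2.60% and 2.88% in scrambled total RNA. Apoe alone gave between 18.1% and 31.7% of the summed level.

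**Figure D1:**
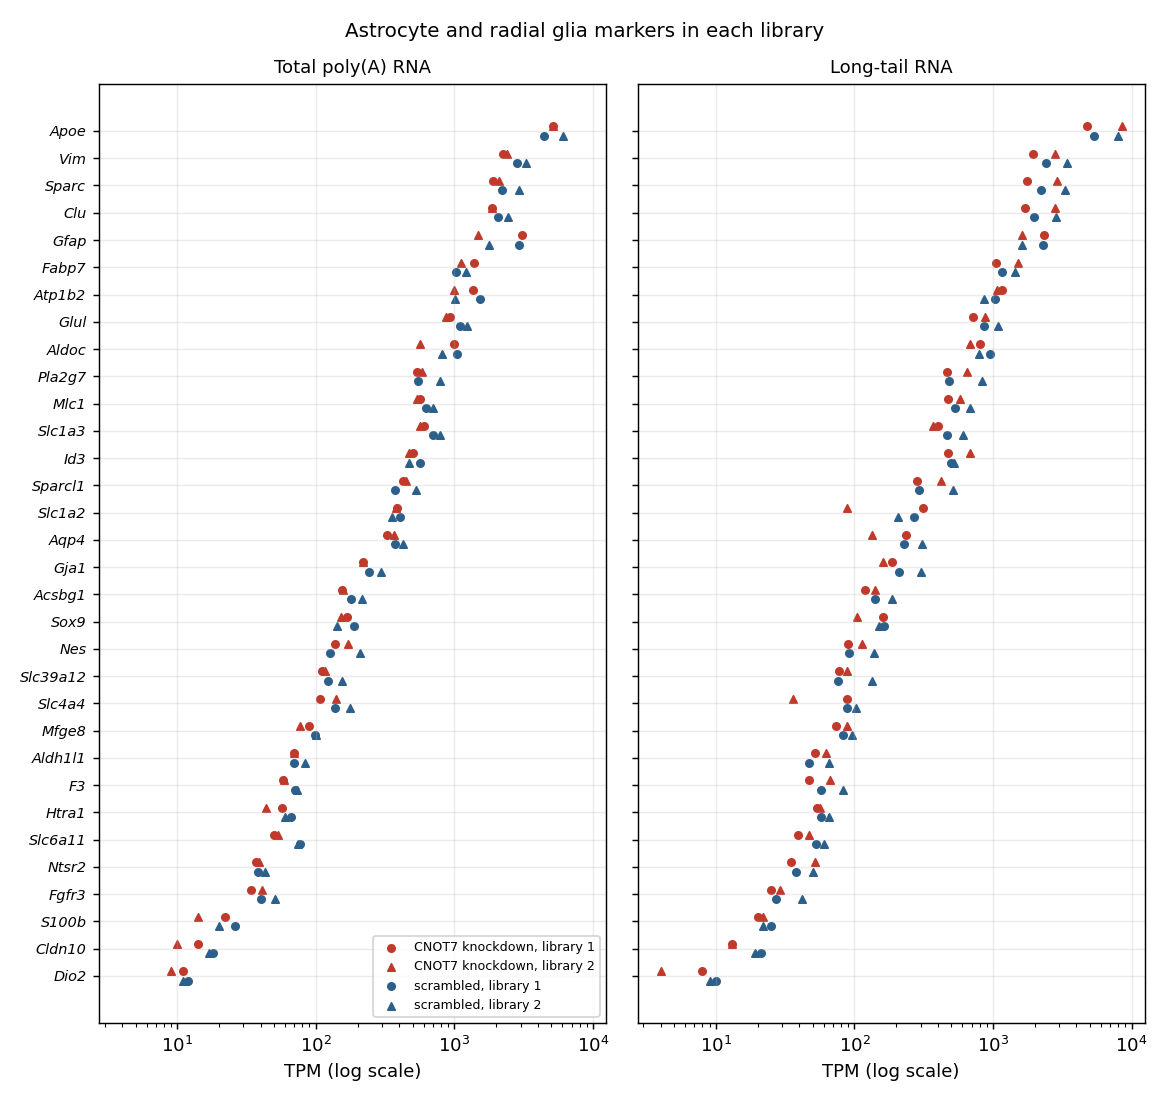
TPM of the 32 astrocyte and radial glia markers (rows, in order of their mean) in each library, on a log scale, for total poly(A) RNA (left) and long-tail RNA (right); circles are library 1 and triangles library 2 of a group, red for CNOT7 knockdown and blue for scrambled. The genes span Dio2 at a mean of 9.25 TPM to Apoe at 5933 TPM, and knockdown and scrambled points lie close together for most of them. Knockdown long-tail library 2 is low for Slc1a2, Slc4a4 and Aqp4.

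Against scrambled neurons, the total RNA of knockdown neurons held slightly smaller shares of most of these mRNAs, with no gene past the threshold of the test. Of the 33 genes tested (all but Slc7a10), 31 had a difference below 0 and 2 above it, and the median difference was −0.26 on the log2(TPM + 1) scale. The median over all 13681 tested genes was −0.07, and 64.0% of them were below 0; 27 of the 33 markers lay below that median. In the limma model over all genes, with Benjamini-Hochberg adjustment and a threshold of 0.05, 0 markers were called, as were 0% of all tested genes, and 2 markers had an unadjusted p under 0.05, both lower, against 4.3% of all genes. Libraries did not overlap, with knockdown lower, for 15 of the 33 markers (20.1% of all tested genes), and with knockdown higher for 0. The share of all genes in the higher direction is not given, so that 0 has no background to be read against. Of the genes that the authors' deposited tables list, 104 (0.436% of the entries) for total RNA and 97 (0.407%) for long tails, 0 are markers. The member median per library, relative to each gene's mean, was 0.02 and −0.07 in knockdown total libraries, against 0.18 and 0.28 in scrambled ones. The same median over all tested genes was 0.11 and 0.04 in knockdown, against 0.16 and 0.15 in scrambled total libraries.

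Among long-tailed RNA the picture was similar in direction and less even between libraries. Of the 33 markers, 29 were below 0 and 4 above it, with a median of −0.27 against −0.10 over all genes, of which 61.6% were below 0. By limma 0 were called (0% of all genes), 4 had an unadjusted p under 0.05, all lower (6.47% of all genes), and for 6 the knockdown libraries lay below the scrambled ones without overlap (17.1% of all genes). The member median was −0.27 and −0.11 in knockdown long-tail libraries, against −0.10 and 0.20 in scrambled ones. Which scrambled library was used moved the result more than 1.5 times: the median was −0.46 without scrambled long-tail library 1 and −0.04 without library 2. It was −0.13 without knockdown long-tail library 1 and −0.31 without library 2, the one that stood apart. In the described set, 26 of 32 genes were below 0 in both fractions, as were 48% of all tested genes. Knockdown lay below scrambled without overlap in both fractions for 5 (Slc1a3, Gja1, Cldn10, Slc6a11 and Htra1), and for 9.49% of all tested genes. The 2 fractions may come from the same cultures, so these are not separate tests.

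**Figure D2:**
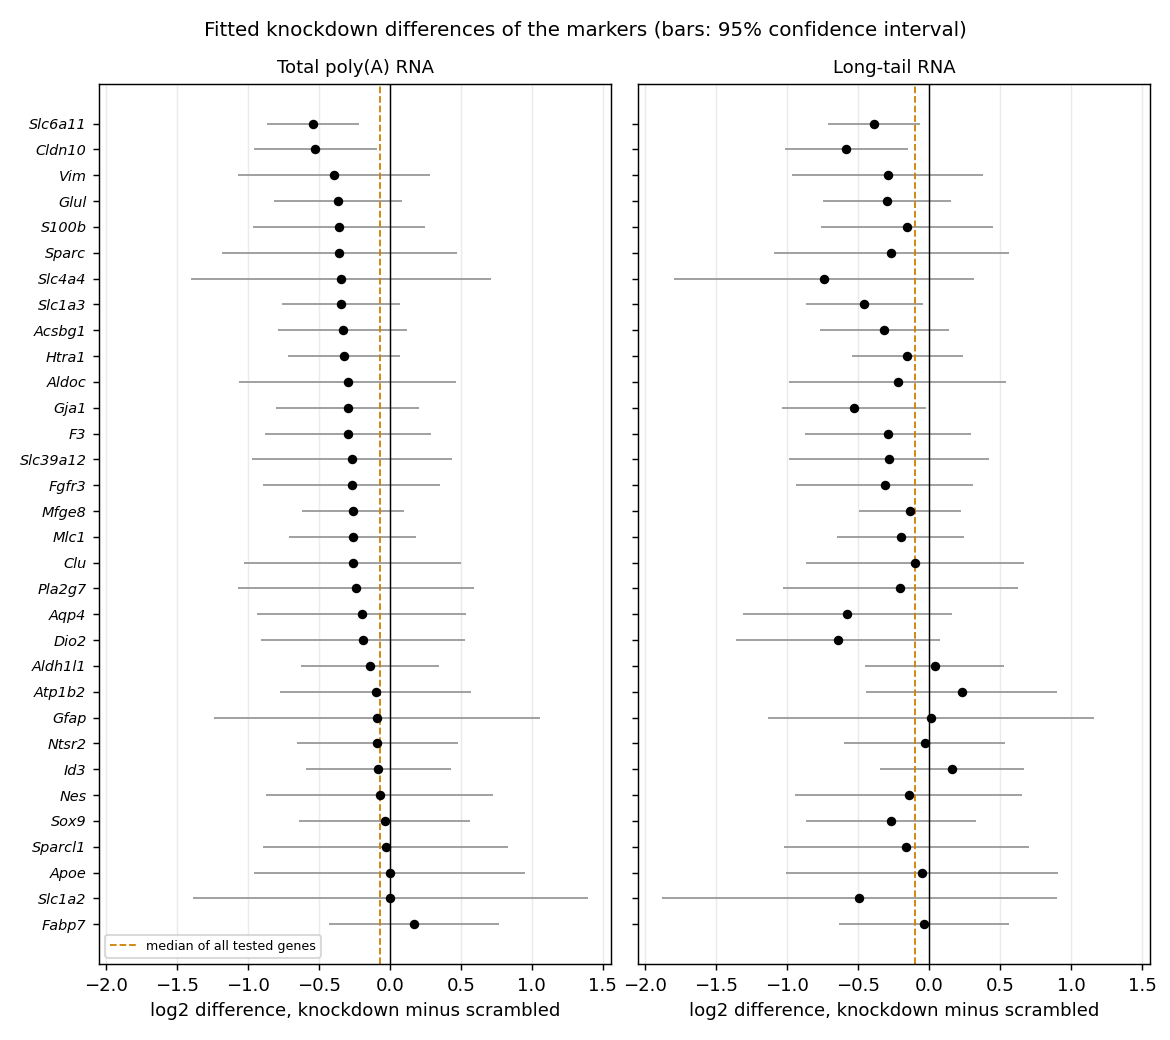
Fitted log2 differences, knockdown minus scrambled, of the 32 markers (rows, in order of the total RNA difference) in total poly(A) RNA (left) and long-tail RNA (right); points are the estimates, grey bars 95% confidence intervals from the limma model, and the dashed line is the median of all tested genes (−0.07 and −0.10). Most points lie left of 0, and the intervals of Slc6a11 and Cldn10 lie below 0 in both fractions; no gene passed after adjustment.

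Among the transporters, Slc6a11, which takes up GABA into astrocytes, had the smallest p of the markers in total RNA. It was at 50 and 53 TPM in knockdown total, against 77 and 74 TPM in scrambled total libraries, and at 39 and 47 TPM against 53 and 60 TPM in long-tail RNA. The groups did not overlap in either fraction. The fitted difference was −0.54 in total RNA (SE 0.130, adjusted p = 0.506 by limma) and −0.39 in long tails (SE 0.130, adjusted p = 0.522), so it passed in neither. Slc4a4, the sodium bicarbonate cotransporter, was at 107 and 140 TPM in knockdown total, against 138 and 176 TPM in scrambled total libraries. Its long-tail levels were 89 and 36 TPM in knockdown, against 89 and 102 TPM in scrambled libraries, and the difference of −0.74 (SE 0.425, adjusted p = 0.650 by limma) was −0.10 without knockdown library 2. Slc39a12, a zinc transporter, was at 111 and 117 TPM in knockdown total, against 122 and 155 TPM in scrambled total libraries. Atp1b2, a beta subunit of the sodium pump that is abundant on astrocytes, was at 1358 and 993 TPM in knockdown total, against 1542 and 1004 TPM in scrambled total libraries. In long tails Atp1b2 was at 1157 and 1065 TPM in knockdown, against 1041 and 860 TPM in scrambled libraries, so knockdown lay above scrambled without overlap. Slc7a10, an amino acid exchanger, was listed at 0 in all libraries but scrambled long-tail library 2, where it was at 1 TPM.

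Genes of glutamate uptake and conversion differed from one another. Slc1a3 encodes the glutamate transporter of radial glia and immature astrocytes, and Slc1a2 the main one of mature astrocytes. Slc1a3 was at 603 and 569 TPM in knockdown total, against 702 and 789 TPM in scrambled total libraries, and at 404 and 366 TPM against 462 and 604 TPM in long-tail RNA. Knockdown was below scrambled without overlap in both, by −0.34 (SE 0.166, adjusted p = 0.879 by limma) and −0.46 (SE 0.166, adjusted p = 0.550). Slc1a2 was at 384 and 376 TPM in knockdown total, inside the 407 and 353 TPM of scrambled total libraries. Its long-tail levels were 313 and 89 TPM in knockdown, against 268 and 207 TPM in scrambled libraries, so that the 2 knockdown libraries lay on either side of the scrambled ones. Glul, glutamine synthetase, was at 929 and 866 TPM in knockdown total, against 1094 and 1224 TPM in scrambled total libraries, a difference of −0.37 (SE 0.181, adjusted p = 0.882 by limma). In long tails Glul overlapped, at 713 and 871 TPM in knockdown, against 860 and 1087 TPM in scrambled libraries (−0.29, SE 0.181, adjusted p = 0.659).

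Of the water channel, junction and end-foot genes, 4 of 5 reached 5 TPM. Cldn10, a claudin, was low but lay below scrambled in both fractions: 14 and 10 TPM in knockdown total, against 18 and 17 TPM in scrambled total libraries, and 13 and 13 TPM against 21 and 19 TPM in long tails. Its differences were −0.53 and −0.58 (SE 0.174 in each, adjusted p = 0.678 and 0.503 by limma). Rounding to whole TPM is a sizeable part of such low values. Gja1, the main connexin of astrocytes, was at 218 and 218 TPM in knockdown total, against 243 and 295 TPM in scrambled total libraries, and at 186 and 162 TPM against 210 and 300 TPM in long tails. The groups did not overlap, and the differences were −0.30 and −0.53 (SE 0.203 in each, adjusted p = 0.927 and 0.556 by limma). Aqp4, the end-foot water channel, was at 327 and 364 TPM in knockdown total, against 370 and 423 TPM in scrambled total libraries. Its long-tail levels were 235 and 133 TPM in knockdown, against 229 and 305 TPM in scrambled libraries, a difference of −0.58 (SE 0.296, adjusted p = 0.625 by limma), with library 1 inside the scrambled range. Without knockdown library 2 the Aqp4 difference was −0.17. Mlc1, an end-foot membrane protein, was at 560 and 540 TPM in knockdown total, against 619 and 703 TPM in scrambled total libraries (−0.26, SE 0.180, adjusted p = 0.927 by limma). Gjb6, a connexin that comes up as astrocytes mature, was at 2 TPM or less in all 8 libraries.

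Among metabolic enzymes, Acsbg1, a long-chain acyl-CoA synthetase, was at 155 and 157 TPM in knockdown total, against 179 and 216 TPM in scrambled total libraries. The fitted difference was −0.33 for total RNA (SE 0.183, adjusted p = 0.924 by limma) and −0.31 for long tails (SE 0.183, adjusted p = 0.650). Aldoc, the brain form of aldolase, was at 1000 and 562 TPM in knockdown total, against 1039 and 817 TPM in scrambled total libraries. Aldh1l1, a folate enzyme used as a pan-astrocyte marker, was at 69 and 69 TPM in knockdown total, against 69 and 84 TPM in scrambled total libraries. Both genes thus overlapped or tied with scrambled. Dio2, which activates thyroid hormone, was at 8 and 4 TPM in knockdown long-tail libraries, against 10 and 9 TPM in scrambled ones, a difference of −0.64 (SE 0.289, adjusted p = 0.595 by limma) that was −0.22 without knockdown library 2.

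The lipid carriers and secreted proteins were all below 0 in both fractions (8 of 8), as were 48% of all tested genes. Apoe counts among the 8 with a total RNA difference of only −0.0008. The medians of the 8 were −0.26 in total RNA and −0.16 in long tails. The long-tail median includes knockdown library 2 and is not given without it. In long tails Apoe was at 4763 and 8459 TPM in knockdown, against 5381 and 8033 TPM in scrambled libraries. Apoe was the least different in total RNA: it was at 5154 and 5189 TPM in knockdown, between the 4397 and 6089 TPM of scrambled total libraries. Clu, the lipid-carrying chaperone clusterin, was at 1861 and 1866 TPM in knockdown total, against 2057 and 2426 TPM in scrambled total libraries. Sparc, a matrix-binding protein, was at 1901 and 2091 TPM in knockdown total, against 2215 and 2936 TPM in scrambled total libraries. Clu and Sparc did not overlap in total RNA and overlapped in long tails. Htra1, a secreted protease, was at 57 and 44 TPM in knockdown total, against 66 and 60 TPM in scrambled total libraries (−0.32, SE 0.158, adjusted p = 0.882 by limma). Mfge8, a bridging protein for uptake of dying cells, was at 89 and 77 TPM in knockdown total, against 98 and 101 TPM in scrambled total libraries (−0.26, SE 0.144, adjusted p = 0.924 by limma). F3, which is tissue factor, also had no overlap in total RNA, at 58 and 59 TPM in knockdown, against 71 and 73 TPM in scrambled libraries. Sparcl1 (425 and 446 TPM in knockdown, against 373 and 529 TPM in scrambled total libraries) and Pla2g7 (534 and 582 TPM, against 548 and 789 TPM), which hydrolyses platelet-activating factor, overlapped.

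The 3 filament genes had medians of −0.09 in total RNA and −0.14 in long tails. For the 6 receptors, signalling proteins and transcription factors the medians were −0.08 and −0.10. These long-tail medians include the knockdown library that stood apart and are not given without it, so they may rest on that library. Vim was at 2258 and 2410 TPM in knockdown total, against 2847 and 3302 TPM in scrambled total libraries, without overlap. Nes, the progenitor filament nestin, was at 138 and 172 TPM in knockdown total, within the 126 and 208 TPM of scrambled total libraries. Gfap varied more between libraries of a group than between groups: 3078 and 1488 TPM in knockdown total, against 2934 and 1767 TPM in scrambled total libraries. In long tails Gfap was at 2337 and 1611 TPM in knockdown, against 2303 and 1609 TPM in scrambled libraries. Fabp7, the fatty acid binding protein of radial glia, had a difference above 0 in total RNA, at 1393 and 1123 TPM in knockdown, against 1024 and 1205 TPM in scrambled libraries, and overlapped. Sox9, a transcription factor that sets glial fate, was at 168 and 153 TPM in knockdown total, against 189 and 143 TPM in scrambled total libraries. S100b, a calcium-binding protein, was at 22 and 14 TPM in knockdown total, against 26 and 20 TPM in scrambled total libraries (−0.36, SE 0.244, adjusted p = 0.927 by limma). The growth factor receptor Fgfr3 (34 and 41 TPM in knockdown, against 40 and 51 TPM in scrambled total libraries) and the neurotensin receptor Ntsr2 (37 and 39 TPM, against 38 and 43 TPM) overlapped as well. In long tails Fgfr3 was at 25 and 29 TPM in knockdown, against 27 and 42 TPM in scrambled libraries (−0.31, SE 0.250, adjusted p = 0.704 by limma). Id3, an inhibitor of basic helix-loop-helix factors, was at 503 and 468 TPM in knockdown total, against 562 and 468 TPM in scrambled total libraries.

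Other lists were read the same way, as counts and medians without a test of the lists. Of 106 further astrocyte and radial glia genes, 90 were below 0 in total RNA and 16 above, with a median of −0.19, and in long tails 87 were below and 17 above (median −0.20). None was called by limma, and 2 were lower and 1 higher at an unadjusted p under 0.05 in total RNA. Slc25a18, a mitochondrial glutamate carrier of astrocytes, was at 106 and 79 TPM in knockdown total, against 131 and 118 TPM in scrambled total libraries. Hes1, a Notch target that maintains radial glia, was at 13 and 11 TPM in knockdown total, against 10 and 8 TPM in scrambled total libraries. Of 36 reactive astrocyte genes tested, a list that shares Gfap and Vim with the markers, 35 were below 0 in total RNA and 1 above (median −0.24). Complement C3, among these, was at 51 and 46 TPM in knockdown total, against 67 and 69 TPM in scrambled total libraries.

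Markers of other cell types were read beside these. All 22 tested markers of the oligodendrocyte lineage were below 0 in total RNA (median −0.53), with 9 at an unadjusted p under 0.05, and their summed level was 1530 and 1438 TPM in knockdown, against 2401 and 2121 TPM in scrambled libraries. Of 20 pan-neuronal markers, 11 were above 0 and 9 below (median 0.05), and their summed level was 10558 and 8676 TPM in knockdown total, against 8866 and 7891 TPM in scrambled total libraries. Without Gap43, Tubb3 and Uchl1, the genes of that list in the authors' deposited tables, the other 17 summed to 7972 and 6647 TPM in knockdown, against 7992 and 7182 TPM in scrambled total libraries. Summed levels of the other lists in total RNA are given next. Fibroblast and meningeal genes summed to 1113 and 1082 TPM in knockdown, against 1315 and 1372 TPM in scrambled libraries, and 12 of 15 were below 0. Most of that sum was Thy1, a gene that is also in the pan-neuronal list. Thy1 was at 906 and 828 TPM in knockdown, against 1073 and 1095 TPM in scrambled libraries. Microglial genes summed to 43 and 33 TPM in knockdown, against 61 and 37 TPM in scrambled libraries, and 5 of 17, among them Aif1, Cx3cr1 and Tmem119, were listed at 0 throughout. Endothelial and mural genes summed to 421 and 571 TPM in knockdown, against 471 and 664 TPM in scrambled libraries, with 9 of 19, Pecam1 and Cldn5 included, listed at 0. Ependymal and choroid plexus genes summed to 259 and 218 TPM in knockdown, against 286 and 283 TPM in scrambled libraries. Proliferation genes summed to 292 and 334 TPM in knockdown, against 306 and 340 TPM in scrambled libraries. Excitatory and inhibitory neuron markers had medians of 0.05 and −0.09 in total RNA. The part of any other cell type in the marker differences was not tested, and Vim, Sparc, Id3 and Apoe are known from several of these cell types too.

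**Figure D3:**
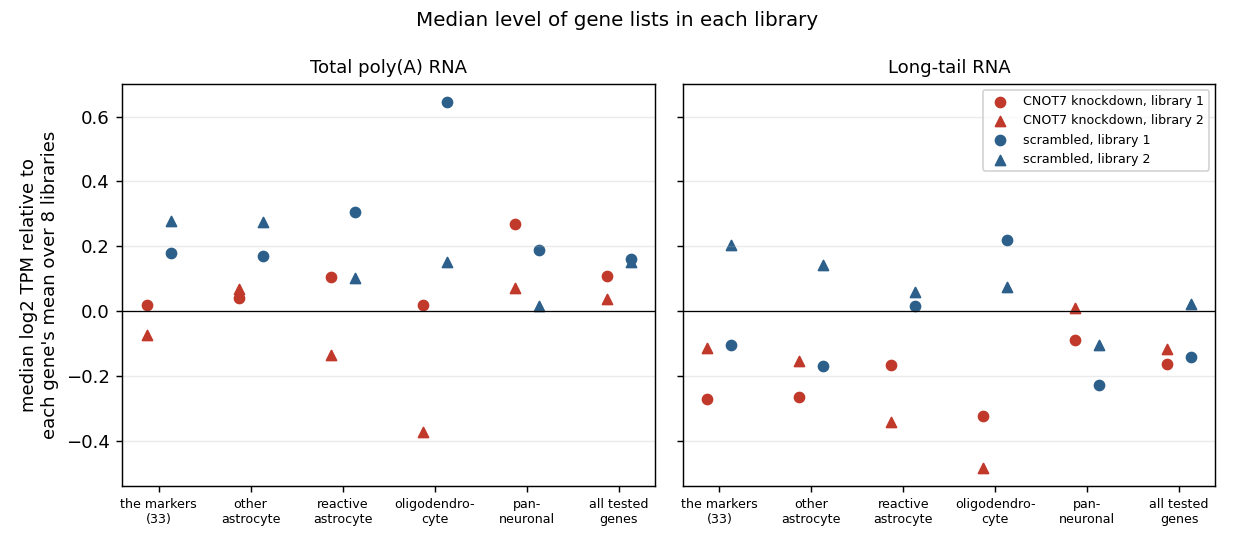
Median log2 TPM of gene lists in each library, relative to each gene's mean over the 8 libraries, in total poly(A) RNA (left) and long-tail RNA (right); circles are library 1 and triangles library 2, red for CNOT7 knockdown and blue for scrambled. For the markers both knockdown total libraries (0.02 and −0.07) lie below both scrambled ones (0.18 and 0.28). The same holds for the oligodendrocyte list, which is spread more widely (0.02 and −0.37, against 0.65 and 0.15). It also holds for the other astrocyte list (0.04 and 0.07, against 0.17 and 0.27). All tested genes are ordered likewise (0.11 and 0.04, against 0.16 and 0.15). The reactive astrocyte and pan-neuronal lists overlap in total RNA.

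Long-tail RNA was next set against total RNA. TPM in the 2 fractions are shares of different pools, and the all-gene median was −0.22 both in knockdown and in scrambled neurons, so values are read against it. In knockdown neurons 15 of the 33 markers lay below that median, and in scrambled neurons also 15, with marker medians of −0.14 and −0.15. Without knockdown long-tail library 2 the knockdown median was −0.24, against −0.25 over all genes. By limma 0 markers were called in either (0% of all genes in each). At an unadjusted p under 0.05, 3 markers were lower in long tails in knockdown (25.1% of all genes) and 2 in scrambled neurons (12.9%). Without overlap, 13 were lower in knockdown (40% of all genes) and 9 in scrambled neurons (39.6%), so these counts were not above the background. Centring each library on its median moved the all-gene median to 0.11 in knockdown and 0.02 in scrambled neurons. The marker median lay above that of all genes by 0.08 in knockdown and 0.07 in scrambled neurons, but below it, at −0.22 and −0.10, after quantile normalization.

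The markers did differ among themselves in this measure, in the order of transcript length. Length was taken from GENCODE vM21 (GRCm38) as the longest principal coding transcript of a gene, which need not be the form made in these cells, and was looked at after the values were seen. Fabp7, with an annotated transcript of 804 nt, was at 1056 and 1506 TPM in knockdown long tails, against 1393 and 1123 TPM in knockdown total RNA. In scrambled neurons Fabp7 was at 1169 and 1431 TPM in long tails, against 1024 and 1205 TPM in total RNA. Slc1a2, with 11595 nt, was at 268 and 207 TPM in scrambled long tails, against 407 and 353 TPM in scrambled total RNA, and its values did not overlap. Across the 30 markers averaging 20 TPM or more, the long minus total difference and length had a Spearman rho of −0.89 in knockdown and −0.86 in scrambled neurons. Over 6481 genes at that level, from the same 8 libraries, rho was −0.82 in both, so the markers followed the order that genes in general did. Without knockdown long-tail library 2 the knockdown values were −0.56 for the markers and −0.56 for all genes. Both rhos are descriptions, since genes within libraries are not independent replicates.

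In the class above the third quartile of length over those 6481 genes (4322 nt), Slc1a2, Slc4a4, Nes and Aqp4 had a median long minus total difference of −1.03 in knockdown and −0.63 in scrambled neurons. All 1620 genes of that class had −0.64 and −0.46. Without knockdown long-tail library 2 the knockdown medians were −0.50 for the 4 markers and −0.40 for all genes of the class. In the class up to the first quartile (1799 nt), Apoe, Fabp7, Id3, Ntsr2 and S100b had medians of 0.24 in knockdown and 0.11 in scrambled neurons, against 0.21 and 0.12 for all 1623 genes. Without that library the knockdown medians of the short class were −0.12 for the markers and −0.00 for all genes. Aqp4 (5054 nt) differed by −0.96 in knockdown (SE 0.296, adjusted p = 0.146 by limma) and −0.58 in scrambled neurons (SE 0.296, adjusted p = 0.415). Slc1a3 differed by −0.61 (SE 0.166, adjusted p = 0.140) and −0.49 (SE 0.166, adjusted p = 0.377) by limma. Slc4a4 (7931 nt) differed by −1.10 in knockdown (SE 0.425, adjusted p = 0.182 by limma), and Dio2 by −0.71 (SE 0.289, adjusted p = 0.197). Without knockdown long-tail library 2 the knockdown differences were −0.55 for Aqp4, −0.53 for Slc1a3, −0.46 for Slc4a4 and −0.28 for Dio2. In scrambled neurons Slc6a11 differed by −0.41 (SE 0.130, adjusted p = 0.377 by limma) and Aldh1l1 by −0.45 (SE 0.196, adjusted p = 0.382). Leaving out knockdown long-tail library 1 keeps only the library that stood apart. The marker median in knockdown neurons was then −0.12, against −0.18 over all genes.

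**Figure D4:**
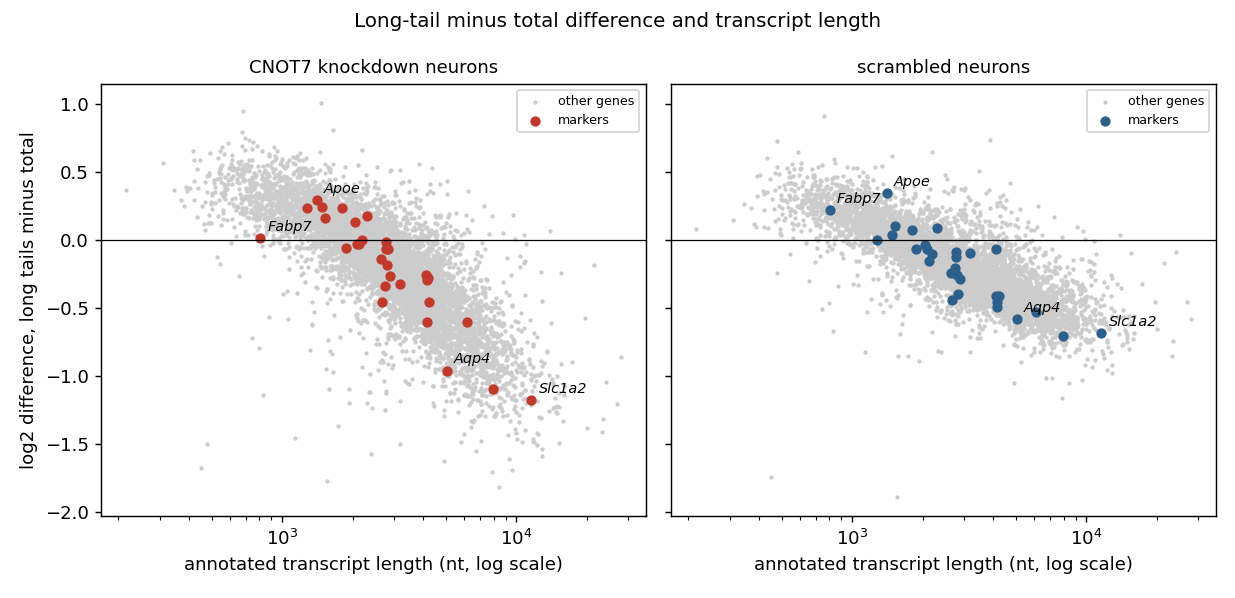
Long-tail minus total difference in log2(TPM + 1) against annotated transcript length in nt (log scale), for CNOT7 knockdown (left) and scrambled neurons (right); each point is a gene averaging 20 TPM or more, the 30 markers in color and other genes in grey. In both panels the markers lie along the downward band of all genes (rho −0.89 and −0.86 for the markers, −0.82 for all genes), from Fabp7 and Apoe at the short end to Slc1a2 at the long end.

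The interaction, which subtracts the knockdown minus scrambled difference of total RNA from that of long tails, compares the effect between fractions. Of the 33 markers 18 were above 0 and 15 below, with a median of 0.02 against −0.02 for all genes. By limma 0 markers and 0% of all tested genes were called, and no marker had an unadjusted p under 0.05 (120 of 13681 genes did, 54 higher and 66 lower). Dio2 had the smallest p of the described markers, at −0.46 (SE 0.409, adjusted p = 1.00 by limma), followed by Aqp4 at −0.38 (SE 0.418, 95% confidence interval −1.42 to 0.66). Atp1b2 was at 0.33 (SE 0.383) and Slc6a11 at 0.15 (SE 0.184), both with an adjusted p of 1.00 by limma. Without knockdown long-tail library 2 the interaction was −0.03 for Dio2, 0.03 for Aqp4 and 0.02 for Slc6a11, and the marker median was −0.06. Without knockdown long-tail library 1 instead, the marker median moved the other way, to 0.15, against 0.004 over all genes. In the knockdown comparison of long tails, the difference and length had a rho of −0.59 across the 30 markers and −0.41 across 6481 genes. Without library 2 the rhos were 0.29 and 0.18, the opposite sign.

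Markers also differed in how the 2 libraries of a group compared, and did so in the same order in several groups. Of the 32 described genes, 12 were higher in library 2 in all 4 groups, namely Vim, Nes, Slc39a12, Acsbg1, Apoe, Clu, Sparc, Sparcl1, Pla2g7, F3, Fgfr3 and Ntsr2. Another 6 were higher in library 1 in all 4 groups, namely Gfap, Slc1a2, Atp1b2, Aldoc, Dio2 and Sox9. Among all 11082 genes averaging 5 TPM or more, 1223 were higher in library 2 throughout and 1061 (9.57%) in library 1. In log2, library 2 over library 1 was −1.05 for Gfap in knockdown total and −0.73 in scrambled total RNA, and −0.54 and −0.52 in the long tails. For Aldoc it was −0.83 in knockdown total and −0.35 in scrambled total RNA. Nes had values of 0.32 in knockdown total and 0.72 in scrambled total RNA. The labels give the numbers no meaning beyond the replicate.

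**Figure D5:**
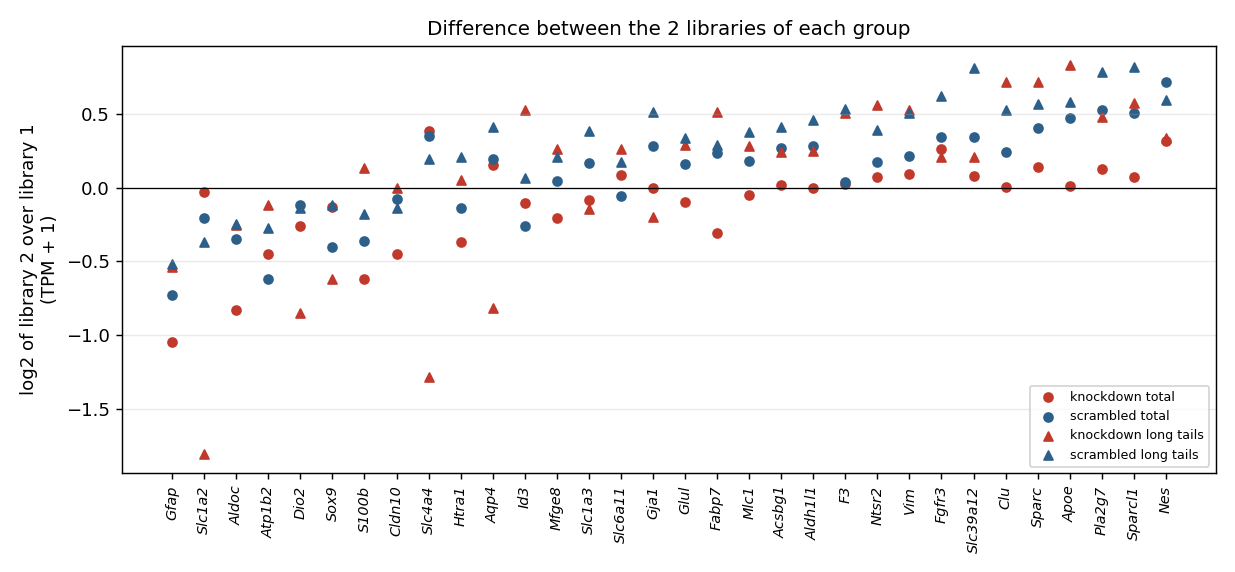
Log2 of library 2 over library 1 (TPM + 1) for each of the 32 markers (columns, in order of the mean of the 4 values); circles are total RNA and triangles long tails, red for CNOT7 knockdown and blue for scrambled. Gfap and Aldoc lie below 0 and Nes, Apoe and Sparc above 0 in all 4 groups, and the knockdown long-tail pair lies far below the others for Slc1a2, Slc4a4 and Aqp4.

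Promoter sequence was read for the letters TTCCNGGAA, a binding site of STAT factors, and Gfap and Aldoc were the only markers with them in the windows examined. RefSeq promoter windows (GRCm38.p6, 250 bases before to 50 after a start) were matched for 29 of the 34 genes, with 35 windows. The letters, which read the same on both strands, were in 2 of these windows (5.71%) and in 1.15% of all 32851 windows. GFAP is a known target of STAT signalling. A match is a description of the letters, and neither window was tested for binding. Both windows are shown because they hold the match, which is in capitals. Of the other 4 markers that were higher in library 1 in all groups, the windows of Slc1a2 and Dio2 did not hold these letters, and Atp1b2 and Sox9 had no window.
Gfap, chr11:102897151-102897450, minus strand: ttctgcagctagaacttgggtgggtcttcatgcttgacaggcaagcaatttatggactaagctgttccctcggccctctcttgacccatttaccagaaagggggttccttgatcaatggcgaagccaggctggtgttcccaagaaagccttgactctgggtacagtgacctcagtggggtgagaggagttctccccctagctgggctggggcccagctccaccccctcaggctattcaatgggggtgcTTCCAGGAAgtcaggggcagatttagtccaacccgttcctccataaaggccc
Aldoc, chr11:78323948-78324247, plus strand, 1 of its 2 starts: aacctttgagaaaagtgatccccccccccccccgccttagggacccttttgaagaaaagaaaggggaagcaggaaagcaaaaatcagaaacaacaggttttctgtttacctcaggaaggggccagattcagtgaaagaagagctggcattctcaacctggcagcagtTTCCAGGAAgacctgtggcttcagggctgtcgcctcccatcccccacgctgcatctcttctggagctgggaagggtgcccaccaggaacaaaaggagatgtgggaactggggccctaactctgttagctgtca

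Of the other motifs searched on both strands, TTGGC, bound by NFI factors that act in gliogenesis, was in 45.7% of the marker windows and 46.7% of all windows. ACAAT, the core bound by SOX factors, was in 14.3% of the marker windows and 31.0% of all, and CANNTG, the E-box, in 62.9% and 72.3%.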

How the data were processed

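Per the file headers and values, the authors deposited gene TPM from RSEM, a score scaled to the library and rounded to whole numbers, and 2 result tables with a log2 fold change, its standard error score, a signal column of mean normalized counts and a p-value. The tools DESeq2, DESeq, RSEM, TopHat2 and CASAVA and the build mm10 are named, per the submitters' processing notes, with no versions. The deposited log2 values had the opposite sign to knockdown minus scrambled for all genes of both tables and were turned round. Names of 27 entries stood as dates.

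Members and lists were chosen with earlier results of these data known. The 13681 genes averaging 1 TPM or more were analysed as log2(TPM + 1). All 8 libraries entered 1 limma model (version 3.58.1, R 4.3.3) of 4 group means, moderated with a trend on mean level; 5 contrasts were tested two-sided, and Benjamini-Hochberg adjustment ran over all tested genes. It was tested on simulated data. Transcript length, promoter windows and library order were looked at after values were seen. An exact permutation test of 2 against 2 libraries cannot pass, so none was run. Fitted values are given for the 10 described markers with the smallest p per knockdown contrast and 4 per other contrast. TPM keep no depth, so no counting interval is given. Pseudocount 1 shrinks differences of low genes. Alternatives varied the pseudocount, filter, scaling, block, trend and libraries.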

Additional observations from a re-analysis of the deposited data

How the results depend on the processing

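Over 19 other settings, 595 of 599 values of the markers named for a contrast by the smallest p kept their direction and their side of the threshold. The exceptions came without a knockdown long-tail library. The Aqp4 interaction ran from −0.788 without library 1 to 0.0282 without library 2. Without library 1, Slc4a4, Aqp4 and Dio2 changed side of the threshold for long tails minus total in knockdown neurons. So did Slc1a2, which is not among those named. That setting leaves 1 library in the group, and its marker median was −0.12, against −0.18 over all genes. No marker was called in the other contrasts under any setting.

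Counts of all genes called, 0 as reported, were for knockdown minus scrambled in total RNA 43 with no filter, 6 at a mean of 5 TPM, 7 at 20 TPM, 4 with quantile normalization, 1 with Rn45s left out, 101 with only the 4 libraries compared, and 0 to 32 leaving out 1 library. In the same order they were 54, 5, 13, 1, 1, 83 and 0 to 6 for long tails. For long tails minus total, no filter, 5 TPM, 20 TPM, 4 libraries and leaving out 1 gave 56, 1, 1, 101 and 0 to 2104 in knockdown and 33, 2, 1, 155 and 0 to 57 in scrambled neurons. The interaction gave 0 to 2 leaving out 1 library.

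The marker median moved with centring to −0.115 for knockdown minus scrambled in long tails, and to 0.189 (knockdown) and 0.0877 (scrambled) for long tails minus total, and was −0.0734 in scrambled neurons with Rn45s left out. Leaving out 1 library it ran from −0.464 to −0.0390 in the first, from −0.257 to −0.0896 for long tails minus total in knockdown and from −0.315 to −0.0510 in scrambled neurons, and from −0.19 to 0.23 in the interaction. In total RNA it stayed between −0.30 and −0.20 under all settings. The cause of these changes was not tested. Depth is unknown, and whole-number TPM limits genes as low as Cldn10 and Dio2.

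With the replicate number as a block, 0 genes were called in all 5 contrasts, and no marker call changed. The labels state no pairing. Over genes averaging 20 TPM or more, differences between libraries 1 and 2 correlated across groups at 0.245 to 0.759, but at −0.116 between knockdown total and knockdown long tails, where the crossed pairing, added after the data were seen, also called 0 genes.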
